A study of Mus musculus with 6 samples.

Results

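Glycolysis is the route of cytosolic enzymes that splits glucose to pyruvate and yields ATP and NADH. Proliferating and carcinoma cells are known for running it at high rates and for turning much of the pyruvate into lactate. Its genes are among the most abundant transcripts of such cells, and several are classical targets of the hypoxia-inducible factor HIF1 and of MYC. A set of 10 glycolytic enzyme genes was looked up by gene name, HK2, GPI, ALDOA, TPI1, GAPDH, PGK1, PGAM1, ENO1, PKM and LDHA, of which 7 had a row among the 4195 genes of the deposited table. GPI, PGAM1 and LDHA had no row. The table holds only genes with a p-value under 0.05 in the authors' comparison, so these 3 genes have no value here.

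The cells were KYSE30, an established human line from an esophageal squamous cell carcinoma, wild type by its labels and grown in medium with fetal bovine serum. One group of 3 libraries came from untreated Control cells and one group of 3 libraries from cells exposed to 100 uM acetylcholine (ACh), the transmitter of muscarinic and nicotinic receptors, both at 4 h. The comparison asks how ACh exposure alters transcript levels at that time. The labels do not say whether the libraries of a group are separate cultures, and the p-values then cover no more than the spread of these samples, possibly technical.

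Values are normalised read counts. A gene is said to have risen or fallen where both the limma test across all listed genes and the authors' deposited adjusted p stood under 0.05. Of the 4195 listed genes 63.8% passed both, 28.8% as higher and 35.0% as lower in ACh. These shares are the background for each count of called genes below. The groups did not overlap for 93.0% of listed genes, since the table had been cut to genes that differ. The limma test uses the libraries that gave the authors' call and so adds no independent support to it. Per library, the sum over the listed genes ran from 10519515 to 11468978 normalised counts and was higher in every Control than in every ACh library. The sequencing depth itself is unknown.

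Of the 7 listed enzymes 2 rose, HK2 and PGK1, and 5 fell, ALDOA, TPI1, GAPDH, ENO1 and PKM. The falls of TPI1, GAPDH, ENO1 and PKM were not called once a trend with GC content was taken out, while the other 3 calls were kept. Their median log2 fold change was -0.17, against -0.10 over all listed genes. All 7 passed both tests, against the 63.8% above, and 6 had groups that did not overlap, against 93.0% of all listed genes. Apart from ALDOA the changes were small, from a mean 15.9% lower for GAPDH to 17.2% higher for HK2. Together the 7 genes took 1.72%, 1.78% and 1.74% of the normalised counts of the listed genes in the Control libraries and 1.63%, 1.66% and 1.61% in the ACh libraries. That share was lower in every ACh library than in every Control library. In bulk RNA, fewer cells that carry a transcript and less transcript per cell cannot be told apart.

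**Figure D1:**
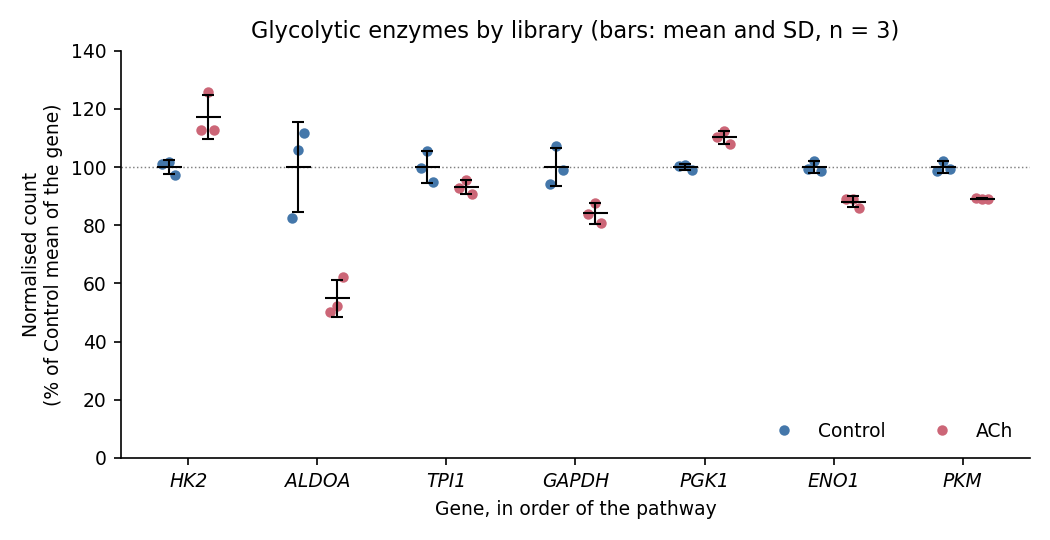
Normalised count of each listed glycolytic enzyme in each library, as a percentage of the gene's Control mean, with genes in the order of the pathway; points are libraries, and black bars show the mean and SD of 3 libraries. HK2 and PGK1 lie above their Control libraries in all 3 ACh libraries, ALDOA stands 45.1% lower, and the groups overlap only for TPI1.

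Hexokinase opens the pathway by phosphorylating glucose, which holds it in the cell, and HK2 is the inducible form bound to mitochondria. The gene (ENSG00000159399) lies on chromosome 2 from 74833981 to 74893359, on the plus strand, with coordinates as the table gives them. The Control libraries held 1238, 1250 and 1192 normalised counts of it, and the ACh libraries 1384, 1543 and 1385. The 3 ACh libraries all lay above the 3 Control libraries, with ACh replicate 2 the highest. The mean rose from 1227 ± 30.4 to 1437 ± 91.7 (SD, n = 3 each), or 0.23 ± 0.05 (SE) on the log2 scale at a limma adjusted p of 0.000494. The authors' deposited table gave it an adjusted p of 0.00281.

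Aldolase splits the phosphorylated hexose into triose phosphates, and ALDOA is the form found in muscle and in most dividing cells. The gene (ENSG00000149925, chromosome 16, 30064164 to 30070457, plus strand) was counted at 146, 188 and 198 in the Control libraries and at 89.0, 92.8 and 110 in the ACh libraries. Every ACh library lay below every Control library, and Control replicate 1 was the lowest of its group. The mean fell from 177 ± 27.5 to 97.3 ± 11.2 (SD, n = 3 each), or -0.85 ± 0.14 (SE) on the log2 scale at a limma adjusted p of 4.6e-05. By size of change ALDOA ranked 169 of the 4195 listed genes. It also had the lowest count of the 7 enzymes, between 82 and 258 steps of the normalised scale, where a step is the smallest unit of a library and may be 1 read. If it is, counting error alone gives a coefficient of variation of 7.12% in Control and 10.5% in ACh, against 15.5% and 11.5% measured. The low count goes against the known abundance of this enzyme's transcript. No source used here says how reads of overlapping gene models or of the other strand were assigned, so the value of ALDOA is uncertain. The nearest listed gene, PPP4C, a protein phosphatase subunit, lies 5521 bases away and had a log2 fold change of -0.25.

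Triose phosphate isomerase interconverts the triose phosphates, so that all carbon of the hexose can pass down the pathway. TPI1 (ENSG00000111669, chromosome 12, 6867119 to 6870948, plus strand) had normalised counts of 13249, 14055 and 12617 in Control and 12356, 12702 and 12068 in ACh. The groups overlapped, since ACh replicate 2 lay above Control replicate 3. The mean fell from 13307 ± 721 to 12375 ± 318 (SD, n = 3 each), or -0.10 ± 0.04 (SE) on the log2 scale at a limma adjusted p of 0.0139. The adjusted p in the authors' deposited table was 0.0296. The call of TPI1, the smallest of the 7 changes, rested on single libraries. Without Control replicate 2 the log2 fold change was -0.063 (limma adjusted p = 0.0942) and without ACh replicate 3 it was -0.086 (limma adjusted p = 0.0519), neither of which passed.

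Glyceraldehyde phosphate dehydrogenase oxidises a triose phosphate and reduces NAD to NADH, and its transcript is a common reference in RNA assays. GAPDH (ENSG00000111640) lies on chromosome 12 from 6533927 to 6538374, on the plus strand. The Control libraries held 60976, 69455 and 64107 normalised counts, and the ACh libraries 54455, 56892 and 52272. No library of one group reached into the other, and replicate 2 was the highest in each group. The mean fell from 64846 ± 4288 to 54539 ± 2311 (SD, n = 3 each), or -0.25 ± 0.05 (SE) on the log2 scale at a limma adjusted p of 0.000541. GAPDH had the tenth place among the listed genes by mean count, and the largest fall of the abundant members.

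Phosphoglycerate kinase carries out the first step of the pathway that makes ATP. PGK1 (ENSG00000102144) had normalised counts of 10727, 10760 and 10573 in Control and 11807, 12008 and 11521 in ACh. It thus rose in all 3 ACh libraries, whereas its listed neighbours in the pathway, GAPDH before it and ENO1 after it, fell. The mean rose from 10687 ± 100.2 to 11778 ± 245 (SD, n = 3 each), or 0.14 ± 0.03 (SE) on the log2 scale at a limma adjusted p of 0.000799. In the table the gene spans 77910739 to 78129296 on the plus strand of chromosome X, and this span overlaps the copper transporter gene ATP7A on the same strand and PGAM4, a gene inside it on the minus strand. ATP7A rose from 393 ± 33.1 to 474 ± 13.1 (SD, n = 3), and PGAM4 had means of 5.96 and 14.7. Reads in the overlap could not be told apart, but both counts are far below that of PGK1.

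Enolase makes phosphoenolpyruvate, and ENO1 is its ubiquitous form. The gene (ENSG00000074800, chromosome 1, 8861000 to 8879250, minus strand) had normalised counts of 61982, 63858 and 61538 in Control and 55684, 55660 and 53602 in ACh. The groups were well apart, with a gap between them wider than the range of either. The mean fell from 62459 ± 1232 to 54982 ± 1195 (SD, n = 3 each), or -0.18 ± 0.05 (SE) on the log2 scale at a limma adjusted p of 0.00175.

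Pyruvate kinase makes pyruvate and ATP in the last step. PKM gives the M1 and M2 forms by alternative splicing, which a count per gene does not separate. The gene (ENSG00000067225, chromosome 15, 72199029 to 72231822, minus strand) had normalised counts of 42642, 44197 and 42877 in Control and 38601, 38434 and 38561 in ACh. The ACh libraries had a coefficient of variation of 0.227% and all lay below Control. The mean fell from 43239 ± 838 to 38532 ± 87.4 (SD, n = 3 each), or -0.17 ± 0.04 (SE) on the log2 scale at a limma adjusted p of 0.00147.

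Levels of different genes were compared as normalised counts per 1000 bases of the gene model, with the lengths given in the table. GAPDH was highest, at 21753 ± 1438 per 1000 bases in Control (SD, n = 3), followed by ENO1 at 11838 ± 233. PKM at 5045 ± 97.8 and TPI1 at 4929 ± 267 came next, and their libraries overlapped in both groups, so these neighbours could not be ordered. PGK1 followed at 1939 ± 18.2, HK2 at 202 ± 5.01 and ALDOA at 45.3 ± 7.03. In ACh GAPDH stood at 18296 ± 775, ENO1 at 10421 ± 227, TPI1 at 4583 ± 118 and PKM at 4496 ± 10.2 per 1000 bases. PGK1 then stood at 2137 ± 44.4, HK2 at 237 ± 15.1 and ALDOA at 24.8 ± 2.87. Apart from PKM and TPI1, every pair of neighbours in this order was separated in both groups. The genes that rose thus had the fifth and the sixth level of the 7, and those that fell include the highest and the lowest member. The value of ALDOA is uncertain, as said above, and so is its place in this order.

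**Figure D2:**
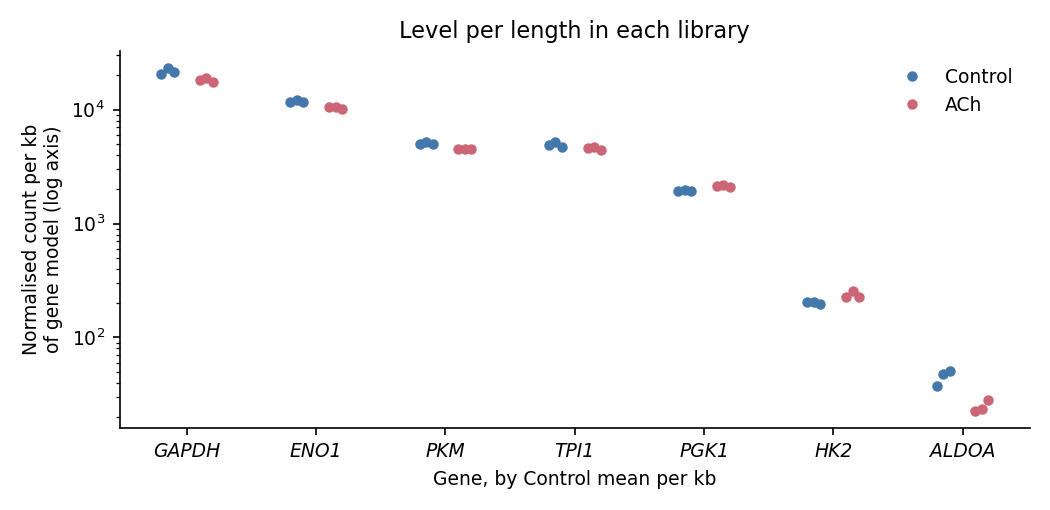
Normalised count per 1000 bases of gene model for each listed enzyme in each library, on a log axis, with genes ordered by their Control mean. GAPDH stands at 21753 and ALDOA at 45.3 in Control, and only the neighbours PKM and TPI1 overlap. The level of ALDOA is uncertain.

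Ratios between 2 enzymes within a library do not depend on how libraries were scaled to each other. All 21 pairs of the 7 enzymes were compared. The ratio of PGK1 to ENO1 was 0.173, 0.169 and 0.172 in Control and 0.212, 0.216 and 0.215 in ACh, so PGK1 gained on ENO1 in every ACh library. The ratio of HK2 to PKM was 0.0290, 0.0283 and 0.0278 in Control and 0.0359, 0.0402 and 0.0359 in ACh. The ratio of ENO1 to PKM was 1.45, 1.44 and 1.44 in Control and 1.44, 1.45 and 1.39 in ACh, and these values overlapped. GAPDH to ENO1, GAPDH to PKM and TPI1 to PKM overlapped as well. The groups did not overlap for the other 17 pairs, each with a two-sided exact permutation p of 0.1, the smallest that 3 against 3 libraries allow (0.124 with Benjamini-Hochberg adjustment over the 21 pairs). No pair can pass 0.05 in this design. All 7 genes had entered the table because they differed between these same libraries. Where 1 gene of a pair rose, the other fell and neither overlapped between groups, their ratio could not overlap either. That holds for PGK1 to ENO1 and for HK2 to PKM, so these ratios add no support to the calls. The share of such pairs among other listed genes was not computed. Such a ratio shows unequal change of the 2 counts and not which gene changed. It is free of library scaling but not of a trend with GC content. As deposited the log2 fold change was 0.14 for PGK1 and -0.18 for ENO1. With the GC trend removed they stood closer, at 0.11 and 0.037.

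HK2 and PGK1 kept their rise, and ALDOA its fall, under every scaling tried. The 4 abundant falling enzymes did not. Equal totals and division by GAPDH moved log2 fold changes upward, by a median of 0.08 and 0.25. They could therefore not turn a rise, and for HK2 and PGK1 only the removal of the GC trend could. Base composition moved with the direction of change over the whole table: across 3676 listed genes the log2 fold change had a Spearman correlation of -0.76 with GC content, taken from the mouse gene that shares the symbol because no human sequence was used here. This is across genes, which are not independent replicates. The mouse genes of the falling enzymes were GC-rich, from 53.5% for Tpi1 to 57.7% for Pkm, against a median of 50.9% over the table. Those of the rising enzymes had 51.9% (Hk2) and 49.7% (Pgk1).

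After the GC trend had been taken out of each library, HK2 stood at a log2 fold change of 0.31 (limma adjusted p = 3.92e-05), PGK1 at 0.11 (limma adjusted p = 0.0140) and ALDOA at -0.64 (limma adjusted p = 0.000922). GAPDH then stood at -0.047, TPI1 at 0.045, ENO1 at 0.037 and PKM at 0.060, with limma adjusted p-values of 0.594, 0.450, 0.641 and 0.327. All 4 thus lost their calls and 3 of them changed sign. Of the 3676 genes 10.5% passed both tests after this step, and the median log2 fold change of all of them went from -0.11 to 0.0086. The step also takes out each library's offset over these genes, so this loss of the median shift follows from the step itself. The parts of the GC trend and of the offset in the sign changes were not separated. A p above the threshold does not show that these 4 transcripts were equal between the groups.

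Giving every library the same total over the listed genes raised the log2 fold changes by a median of 0.08. HK2 then stood at 0.31, PGK1 at 0.22, GAPDH at -0.17, ENO1 at -0.10, PKM at -0.086 and ALDOA at -0.77, all past both tests, as were 52.4% of the listed genes. TPI1 stood at -0.024 (limma adjusted p = 0.493) and lost its call. Of the genes past limma 63.7% were then higher, against 48.2% with the values as deposited. Divided by GAPDH of the same library, a scaling chosen after the data were seen, HK2 stood at 0.48, PGK1 at 0.39 and ALDOA at -0.61, all past both tests. With this scaling 30.3% of the listed genes were under both thresholds. TPI1 turned to 0.14, past limma (adjusted p = 0.0401) but against the direction of the authors' test, and ENO1 (0.064) and PKM (0.082) did not pass limma.

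**Figure D3:**
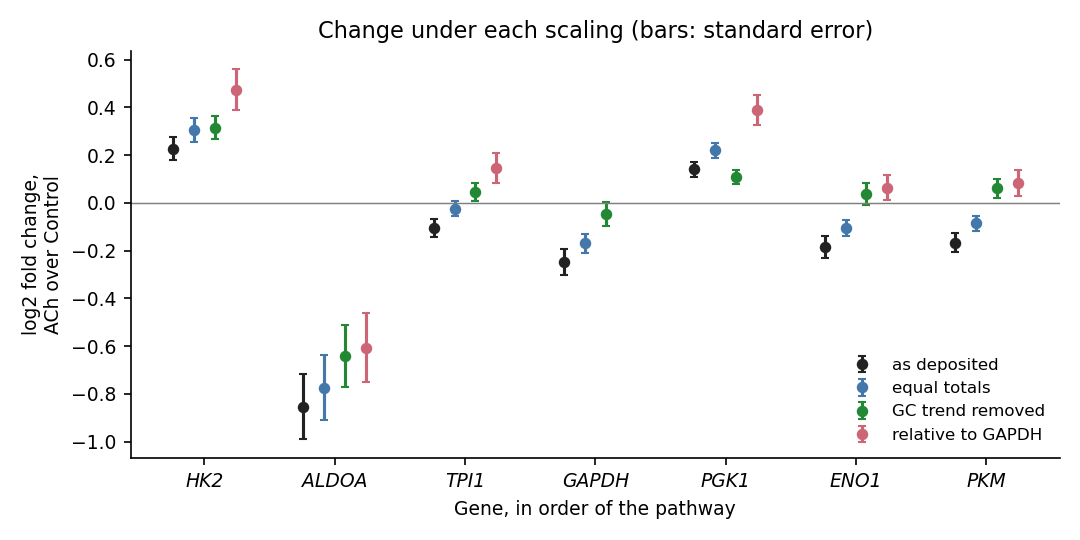
Log2 fold change of each enzyme in ACh over Control with its limma standard error, for values as deposited, scaled to equal totals, with the GC trend removed, and divided by GAPDH of the same library (GAPDH itself left out of the last). HK2, PGK1 and ALDOA keep their sign throughout, while TPI1, ENO1 and PKM move from below 0 as deposited to 0.045, 0.037 and 0.060 with the GC trend removed.

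**Figure D4:**
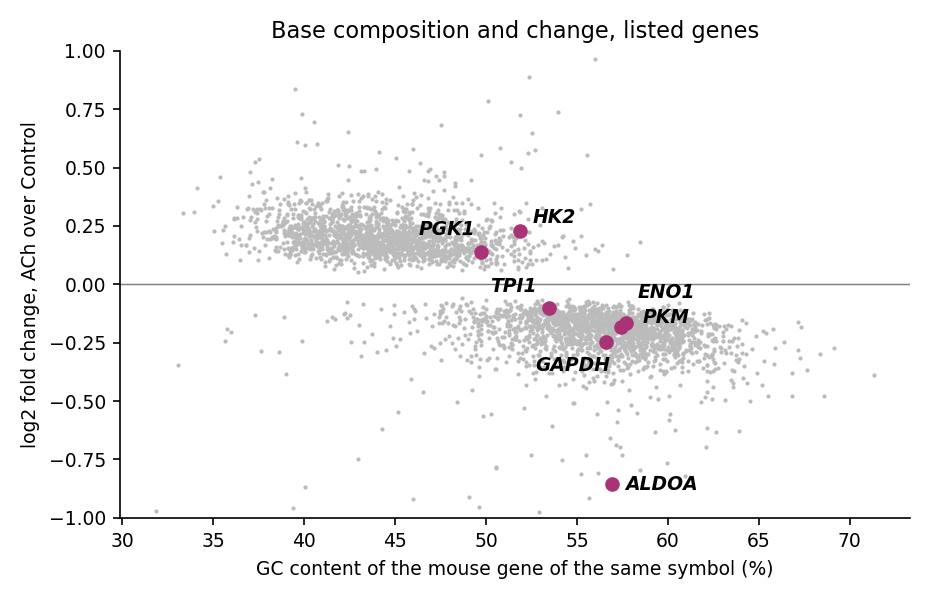
Log2 fold change in ACh over Control against the GC content of the like-named mouse gene, for 3646 listed genes within a log2 fold change of 1 (grey; 30 lie outside the axis) and the 7 enzymes (purple). The empty band around 0 comes from the selection of the table, the higher genes lie at low GC content, and GAPDH, ENO1 and PKM lie inside the cloud of lower genes at 56.6% to 57.7%.

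High abundance also went with a lower value. Of the 154 other listed genes with a mean of at least 10000 normalised counts, a limit chosen after the values were seen, 112 fell and 18 rose past both tests, with a median log2 fold change of -0.15. GAPDH, ENO1, PKM, TPI1 and PGK1 are in this range. The part of abundance in their changes was not tested.

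The other glycolytic steps gave few values. Of 24 isozymes and other enzymes of the pathway 7 were listed, and 2 of them fell while 5 were not called. PFKL, a phosphofructokinase of the committed step, fell from 4444 ± 178 to 4071 ± 135 (SD, n = 3), or -0.13 on the log2 scale. LDHB, the lactate dehydrogenase subunit typical of heart, fell from 699.7 ± 4.99 to 592 ± 64.0 (SD, n = 3), or -0.25 on the log2 scale. HK1, the constitutive hexokinase, had a log2 fold change of -0.09 and PGM2, which feeds glycogen and pentose units in, of 0.16, neither past the authors' adjusted p. The hexokinase gene HK3 and the retrogene PGAM4 had means under 15 normalised counts and a deposited adjusted p of 1, which stands for no adjustment, so they could not pass. With the GC trend removed HK1 turned to 0.11, past limma (adjusted p = 0.0216) in the direction opposite to the authors' test. PFKL then stood at 0.09, also of the opposite sign, and LDHB at -0.11. Neither of these passed limma (adjusted p = 0.0845 and 0.321). LDHAP3, a processed pseudogene of the unlisted LDHA, was near the floor, with counts of 3.95, 1.01 and 0.768 in Control and 4.29, 10.2 and 13.6 in ACh.

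Of 17 genes of glucose and lactate transport 7 were listed, of which 2 rose and 5 fell. Over all listed genes 28.8% rose and 35.0% fell. SLC2A3, the high-affinity glucose transporter GLUT3, rose from 96.7 ± 19.2 to 205 ± 36.3 (SD, n = 3), or 1.08 on the log2 scale. SLC2A1, the basal transporter GLUT1, fell from 9039 ± 229 to 7949 ± 298 (SD, n = 3), or -0.19 on the log2 scale. The transporters SLC2A6 and SLC2A8 fell, with log2 fold changes of -0.28 and -0.19. For lactate, the exporter SLC16A3 (MCT4) and the shared chaperone BSG fell, with log2 fold changes of -0.17 and -0.22, and SLC16A1 (MCT1) rose by 0.12 on the log2 scale. Of these 7 genes SLC2A3 alone kept its call with the GC trend removed, at 1.03.

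**Figure D5:**
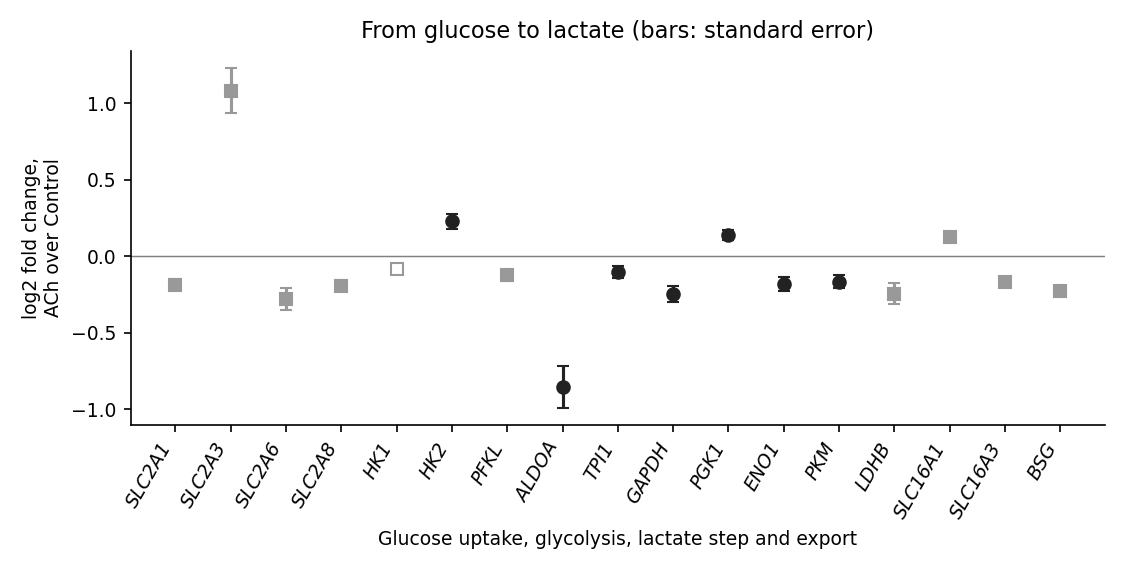
Log2 fold change in ACh over Control with its limma standard error for listed genes from glucose uptake to lactate export; black circles are the 7 enzymes, grey squares other genes of the route, and open symbols did not pass both tests. SLC2A3 at 1.08 and ALDOA at -0.85 stand far from the rest, which lie between -0.28 and 0.23.

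Genes that set the fate of glucose carbon were mixed. In the pentose phosphate pathway, which makes NADPH and ribose, 6 of 9 genes were listed, of which 5 fell and RPE, the epimerase, did not pass both tests (0.15). TKT, transketolase, fell from 23802 ± 151 to 19755 ± 616 (SD, n = 3), or -0.27 on the log2 scale. PGLS, TALDO1 and PGD followed at -0.27, -0.13 and -0.12. With the GC trend removed TKT stood at -0.11 and kept its call, while PGLS, TALDO1 and PGD changed sign. PGP, a phosphatase that clears side products of glycolysis, fell, with a log2 fold change of -0.36, which was -0.17 and still called with the GC trend removed.

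Of 14 genes for the entry of pyruvate into mitochondria 5 were listed, of which 3 rose, 1 fell and PDK3 did not pass both tests (0.40). PDK1, a kinase that shuts pyruvate dehydrogenase, rose from 236 ± 18.4 to 338 ± 17.0 (SD, n = 3), or 0.52 on the log2 scale. The phosphatase PDP1, which reopens it, rose by 0.13 and the subunit DLD by 0.18 on the log2 scale, and the kinase PDK2 fell, with a log2 fold change of -0.33. With the GC trend removed PDK1 kept its call at 0.34, while DLD (-0.035) and PDK2 (-0.12) lost theirs. PDP1 turned to -0.11, past limma (adjusted p = 0.0167) in the direction opposite to the authors' test. Of 20 citric acid cycle genes 5 were listed, of which FH rose (0.12), OGDH and IDH2 fell (-0.13 and -0.19), and SDHA and MDH2 did not pass both tests. With the GC trend removed OGDH (-0.017) and IDH2 (-0.022) lost their calls, and FH had no GC value.

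Of 16 regulators of glycolytic genes 7 were listed, of which 2 rose and 5 did not pass both tests. EGLN3, a prolyl hydroxylase that marks HIF1 for destruction and is itself a HIF target, rose from 262 ± 17.2 to 377 ± 29.2 (SD, n = 3), or 0.52 on the log2 scale, and kept its call with the GC trend removed, at 0.58. SP3, a factor binding GC boxes, rose by 0.19 on the log2 scale and stood at -0.035 with the GC trend removed. HIF1A itself had means of 3310 and 3548 and a log2 fold change of 0.10, short of the authors' adjusted p, and turned to -0.11 with the GC trend removed, past limma (adjusted p = 0.0126). EGLN1, another such hydroxylase, had a log2 fold change of 0.15, also short of the authors' adjusted p. With the GC trend removed EGLN1 stood at 0.34 (limma adjusted p = 1.29e-05). The related hydroxylase EGLN2 went the other way, with means of 78.8 in Control and 51.2 in ACh. Its log2 fold change was -0.61 (limma adjusted p = 0.00209), and it could not pass both tests. With the GC trend removed EGLN2 stood at -0.33 (limma adjusted p = 0.149).

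The identity of the cells could be checked on few genes, since a gene without a row has no value. Of 11 squamous epithelial markers 3 were listed, KRT15, TP63 and SOX2, with summed counts of 7544 to 7672 in Control and 6912 to 7414 in ACh. They went different ways, since TP63 rose from 1711 ± 108 to 2000 ± 27.1 (SD, n = 3) and KRT15 and SOX2 fell, with log2 fold changes of -0.17 and -0.20. Of 12 markers of fibroblasts, endothelium, leukocytes and liver 3 were listed, COL1A1, EGFL7 and LAPTM5, with sums of 1220 to 1291 in Control and 982 to 1156 in ACh. Most of that sum is the endothelial marker EGFL7, which fell from 1064 ± 15.02 to 879 ± 80.2 (SD, n = 3), while the leukocyte marker LAPTM5 had means of 19.6 and 39.6 (log2 fold change 0.96, limma adjusted p = 0.00138) and could not pass both tests, and the fibroblast marker COL1A1 had a log2 fold change of -0.33. Mitochondrially encoded protein genes also differed: the 10 listed summed to 807533 to 927805 in Control and 699304 to 761070 in ACh. Of these 10 genes 7 fell past both tests and 3 were not called, while 35.0% of all listed genes fell. No measure of RNA quality was at hand. The part of these marker and mitochondrial differences in the changes of the enzymes was not tested.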

How the data were processed

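Sequencing libraries came from total RNA by SMARTer chemistry, per the labels' protocols. Mouse is named as organism in the labels, and builds mm10 and mm8 together with Bowtie 0.12.2 in the submitters' processing notes. The table holds human genes (4183 of 4195 IDs start with ENSG), and which human build and which counter were used is not given in the sources used here. Each library column is a deposited signal, given as normalised read counts. All values were multiples (tolerance 0.1) of a smallest unit that lay between 0.768 and 1.13 by library. Read counts divided by a factor for each library would look so, but that the unit is a read was not shown. Per the file headers, the authors also deposited their own p-value (raw and adjusted) and log2 fold change for each gene. In 234 low genes the authors' adjusted p is exactly 1, which was treated as not adjusted. The gene length column is the authors', per the file headers.

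Values were tested as log2(value + 1) in a limma-trend model of group alone (limma 3.58.1 under R 4.3.3). Adjustment was by Benjamini-Hochberg over the 4195 listed genes, with no further filter. These had already been selected by the authors' p-value from the same libraries, so the limma adjusted p-values do not cover the genes left out. The adjustment altered little, as for TPI1 with a limma p of 0.0128 and an adjusted p of 0.0139. By the authors' adjusted p alone 1207 genes were higher and 1471 lower, against 1207 and 1470 past both tests. A fold change is the difference between the groups' means on this scale and understates low genes. A gene was called where both limma and the authors' adjusted p stood under 0.05. Under an alternative the authors' p remains that of the deposited direction, so a gene that turned sign rests on limma alone. Counts include such genes, 70 of 386 with the GC trend removed and 27 of 1271 relative to GAPDH. The test was checked on simulated data. For GC content the like-named mouse gene's longest coding transcript in GENCODE M21 was used, which 3676 genes had (87.6%). A local regression (span 0.3) took its trend out of each library, along with the library's offset over these genes. The other alternatives were a pseudocount of 0.1, leaving out genes under the 0.25 quantile of the mean, a replicate block, each library left out, equal totals, a minimum of 1.5-fold, and, chosen after seeing the data, values relative to GAPDH.

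Members and lists were chosen with earlier results of these data known. Named were all listed members, all listed genes of the pathway lists, genes that overlap a member or are its pseudogene, and the 3 genes most like each member by Pearson's r over the 6 libraries among genes whose mean reached the table's median. Some genes named by this rule are not reported here. Same-numbered libraries of the groups were compared for pairing and were not treated as pairs. Tables and plots were made with Matplotlib 3.10.9, SciPy 1.17.1, NumPy 2.4.6 and pandas 2.3.3 in Python 3.11.15.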

Additional observations from a re-analysis of the deposited data

How the results depend on the processing

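Of 89 values of the 7 enzymes under the alternatives, 79 kept their direction and their side of the threshold. The exceptions were TPI1, ENO1, PKM and GAPDH. With the GC trend removed TPI1 stood at 0.045, ENO1 at 0.037, PKM at 0.060 and GAPDH at -0.047, the calls over all listed genes went from 1207 higher and 1470 lower to 185 and 201, and 1 enzyme was called lower. Equal totals left TPI1 at -0.024. Divided by GAPDH of the same library, an alternative chosen after seeing the data, TPI1 stood at 0.14, ENO1 at 0.064 and PKM at 0.082, 37 genes were called lower, and 1 enzyme, ALDOA, was. This shift of 0.25 in every gene follows from the fall of GAPDH itself. A minimum of 1.5-fold left 15 genes higher and 20 lower, with 0 enzymes higher and 1 lower. Leaving out 1 library moved TPI1 between -0.14 and -0.063 and the count of enzymes called lower between 4 and 5, and no other enzyme lost its call. Leaving out genes under the 0.25 quantile of the mean removed ALDOA from the test. The cause was not tested beyond these alternatives. The planned edgeR and DESeq2 fits were not run, because too few low values in the Control libraries were at hand to show that the steps are reads.

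Libraries with the same number deviated together weakly (r = 0.0821, 0.0555 and 0.0471 for numbers 1 to 3, across genes), under the limit of 0.1 set for pairing, although each library correlated best with its own number. A replicate block cannot alter log2 fold changes in this balanced design, so those of the enzymes stayed, 0.23 for HK2 and -0.10 for TPI1 among them. The calls stayed at 1207 higher and 1470 lower, counts that the authors' adjusted p limits. The limma adjusted p fell for every enzyme, from 0.0139 to 0.00275 for TPI1 and from 0.000541 to 3.87e-05 for GAPDH.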

Other observations

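Several listed glycolytic genes serve as references in RNA assays. Of 17 genes commonly used so, a list chosen after the data were seen, 11 were listed, 5 lower and 4 higher past both tests. Over all listed genes, a set already cut to genes that differ, 63.8% passed both. GAPDH (-0.25), ACTB (-0.18), PPIA (-0.15), RPLP0 (-0.09) and the ribosomal RPL13A (-0.31) fell, and HPRT1 (0.28), TFRC (0.17), YWHAZ (0.15) and PGK1 (0.14) rose, all as log2 fold changes. SDHA (-0.11) and GUSB (-0.16) did not pass both tests. With every library divided by its own GAPDH value, 985 of the 1469 other genes that fell had a log2 fold change above 0 (67.1%), and 26 of these passed limma in that direction. The genes past both tests were then 97.1% higher, against 45.1% with the values as deposited. With the GC trend removed PPIA (-0.23), RPL13A (-0.15) and PGK1 (0.11) stayed past both tests. GAPDH (-0.047), ACTB (-0.13), RPLP0 (0.040), YWHAZ (-0.032) and TFRC (-0.059) did not. SDHA then stood at -0.21 (limma adjusted p = 7.82e-05), still short of the authors' adjusted p, and GUSB at -0.053 (limma adjusted p = 0.518). HPRT1 had no GC value.

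Branches that draw carbon from the pathway went both ways. Of 19 genes 9 were listed, 4 higher and 3 lower past both tests, against 63.8% of all listed genes past both. GPD2, the mitochondrial glycerol phosphate dehydrogenase, rose by 0.21, and UGP2, PGM3 and GFPT1, which make sugar nucleotides and hexosamines, by 0.22, 0.25 and 0.14 on the log2 scale. Of the serine and one-carbon genes PHGDH, SHMT1 and SHMT2 fell, with log2 fold changes of -0.19, -0.12 and -0.12. Of these 7 genes SHMT1 kept its sign and call with the GC trend removed, at -0.19, while SHMT2 turned to 0.10, past limma (adjusted p = 0.0442) in the direction opposite to the authors' test.

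Over the 6 libraries the profiles most like those of the enzymes, by Pearson's r of log2(value + 1), were those of OGA for HK2 (r = 0.997), DDX54 for ALDOA (0.997), RPLP0 for TPI1 (0.992), SH3GL1 for GAPDH (0.996), AMMECR1 for PGK1 (0.998), ATP5F1D for ENO1 (0.999) and FADD for PKM (0.998). Next came VTA1 and HSDL2 for HK2, TACC3 and AMOTL2 for ALDOA, SIVA1 for TPI1, MARVELD1 and RANBP1 for GAPDH, CAB39 and ATAD2 for PGK1, EMC10 and SLC1A5 for ENO1, and STUB1 and COL4A2 for PKM. These values are a description over 6 libraries that share the same contrast and scaling, so a high r is common among listed genes.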
